A study of Homo sapiens with 71 samples.

Results

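The genes of the oxidative phosphorylation machinery were taken by symbol: entries beginning with NDUFA, NDUFB, NDUFC, NDUFS or NDUFV and a digit (complex I), with COX4, COX5, COX6, COX7 or COX8 (cytochrome c oxidase, complex IV) or with ATP5 (ATP synthase), together with CYC1 and CYCS. Symbols ending in P and digits, which mark pseudogenes, were dropped. The rule found 81 of the 31012 entries in the table, of which 42 belonged to complex I, 17 to complex IV, 20 to ATP synthase and 2 were the cytochromes c1 and c. At least 1 read was counted for 73 of them, and 66 passed the filter on low counts and were tested among 6947 features. HepG2, an established human hepatoma line, was profiled by TempO-Seq, in which pairs of short detector oligonucleotides that sit side by side on an RNA are ligated and sequenced. Pooled cells were spread over dishes, grown for 72 h, and then kept for 48 h in medium of which 75% was either purified water (the laboratory controls) or filtered surface water from 1 of 16 sites on Great Lakes tributaries. There were 8 control libraries, 3 libraries from MIWI and 4 from each of BRWI, CRMI, CROH, FRWI, GRMI, GRNY, IHIN, JRMI, LRMN, MAWI, MROH, ORNY, RRMI, SRMI and VROH, 71 in all, where the sites are known by these codes. All dishes came from the same pooled cells of 1 line and the dishes of a site shared its water, so p-values measure the spread between dishes.

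Oxidative phosphorylation passes electrons from NADH through complex I, ubiquinone, complex III with its cytochrome c1, the mobile carrier cytochrome c and complex IV to oxygen. The protons pumped on the way drive ATP synthase, a rotary enzyme of the inner mitochondrial membrane. Most subunits of these complexes are encoded in the nucleus and must be matched with a few made inside the mitochondrion. Hepatocytes rely strongly on this system, whereas hepatoma lines in glucose-rich medium also make much of their ATP by glycolysis.

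Control libraries held 8.18 to 14.5 M counts (M for mega) and site libraries 2.91 to 9.89 M, except VROH 2 with 8872 counts. The 81 genes took 1.90 to 2.36% of the counts of a library, and 0.383% in VROH 2. VROH 2 for its low total, and CRMI 1 and SRMI 3 because an earlier analysis of these data had found them apart, were left out in a further fit, referred to as the fit without the 3 libraries. Among 54 oxidative phosphorylation genes at 10 CPM or more, 50 lay at least 3 log2 units under the rest of their group in VROH 2, 9 in CRMI 1 and 4 in SRMI 3, against 85.7%, 14.9% and 2.48% of all features at that level. Calls are given over all 71 libraries and again without these 3, and the choice of these libraries was not independent of the data. CPM means counts per M counts, after scaling of the totals by the trimmed mean of M-values. All 18 hepatocyte markers were detected in the controls, with a summed level of 169017 to 231717 CPM, and the 6 muscle markers summed to at most 0.279 CPM.

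A total of 15 of the 81 were not tested. Among them COX5B, a structural subunit of complex IV, had 259 reads over all libraries, ATP5MC1, which encodes subunit c of the ATP synthase ring, had 207, COX4I2, the lung and hypoxia isoform of subunit 4, had 116, and the iron-sulphur subunit NDUFS7 had 65. COX6C had 2 reads, the muscle isoforms COX7A1 and COX6A2 had 3 and 1, and the testis isoforms COX7B2 and COX8C were listed at 0. NDUFB11 and NDUFC2 were also listed at 0, while 9845 reads were assigned to NDUFC2-KCTD14, a readthrough transcript that contains NDUFC2 sequence, so that entry is uncertain. The readthrough ATP5MF-PTCD1 and the non-coding NDUFA6-DT, NDUFB2-AS1 and NDUFV2-AS1, which share a prefix with the subunits and are not subunits, were at 0. Probe-based counts near 0 do not show that an mRNA was absent, since they also depend on the probe.

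Promoters were read from RefSeq (GRCh38.p14), from 250 bases before to 50 after the start of transcription, for 5 of the genes called below, and are written 5′ to 3′ on the gene's strand. Capitals mark matches, on either strand, to the letters of elements known in promoters of respiratory genes: GCGCA, any base and GCGC for NRF1, CCGGAAG for the ETS family that includes GABPA, and AAGATGGCG for YY1. The ETS and YY1 letters can share the 3 bases AAG, and in the only gene of the set that held both, ATP5PF, they lay apart. CYCS lies on the minus strand at chr7:25125211-25125510, COX4I1 on the plus strand at chr16:85799445-85799744, NDUFA1 on the plus strand at chrX:119871582-119871881, NDUFA9 on the plus strand at chr12:4648864-4649163 and NDUFB4 on the plus strand at chr3:120596086-120596385.
CYCS: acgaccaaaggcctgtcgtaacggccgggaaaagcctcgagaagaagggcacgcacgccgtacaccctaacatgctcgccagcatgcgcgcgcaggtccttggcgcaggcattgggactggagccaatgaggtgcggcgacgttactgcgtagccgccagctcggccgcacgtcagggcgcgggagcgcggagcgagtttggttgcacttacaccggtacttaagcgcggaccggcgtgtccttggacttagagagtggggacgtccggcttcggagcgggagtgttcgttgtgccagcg
COX4I1: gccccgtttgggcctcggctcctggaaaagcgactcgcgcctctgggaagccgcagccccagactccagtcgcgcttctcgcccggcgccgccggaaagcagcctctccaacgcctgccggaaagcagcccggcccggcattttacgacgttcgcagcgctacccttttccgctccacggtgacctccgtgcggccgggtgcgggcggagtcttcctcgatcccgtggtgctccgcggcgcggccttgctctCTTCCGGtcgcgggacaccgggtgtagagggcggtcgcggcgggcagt
NDUFA1: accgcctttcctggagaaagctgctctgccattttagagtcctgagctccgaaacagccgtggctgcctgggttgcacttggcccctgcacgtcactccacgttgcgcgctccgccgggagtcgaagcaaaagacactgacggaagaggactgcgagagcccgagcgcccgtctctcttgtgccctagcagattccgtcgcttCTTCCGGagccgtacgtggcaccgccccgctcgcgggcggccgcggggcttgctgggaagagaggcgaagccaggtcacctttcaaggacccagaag
NDUFA9: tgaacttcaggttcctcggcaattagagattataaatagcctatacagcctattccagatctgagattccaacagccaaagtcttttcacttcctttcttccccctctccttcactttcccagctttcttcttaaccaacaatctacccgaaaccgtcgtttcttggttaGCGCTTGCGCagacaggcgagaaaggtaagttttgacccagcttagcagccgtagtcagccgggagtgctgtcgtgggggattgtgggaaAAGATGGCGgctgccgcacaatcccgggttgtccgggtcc
NDUFB4: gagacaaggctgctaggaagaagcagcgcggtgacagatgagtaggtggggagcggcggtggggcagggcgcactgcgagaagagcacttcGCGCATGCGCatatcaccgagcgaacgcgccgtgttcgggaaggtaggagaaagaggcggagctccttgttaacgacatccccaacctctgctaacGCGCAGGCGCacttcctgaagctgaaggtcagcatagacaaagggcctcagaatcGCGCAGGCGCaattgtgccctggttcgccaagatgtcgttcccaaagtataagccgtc
In these windows CYCS held no match, COX4I1 and NDUFA1 held 1 ETS match each, NDUFA9 held 1 NRF1 and 1 YY1 match, and NDUFB4 held 3 NRF1 matches. Other genes called at a site, not printed here, differed too. NDUFB8, COX7C, ATP5MC2 and NDUFS8 held no match, and ATP5F1C, ATP5PO, ATP5ME and NDUFA3 held the NRF1 letters. The printed windows are examples and not a measure of how often called genes hold a match. Of the 62 genes of the set found in the promoter table, 10 (16.1%) held the NRF1 letters, 14 (22.6%) the ETS letters and 7 (11.3%) the YY1 letters. The 62 include the non-coding NDUFA6-DT, which held the YY1 letters, NDUFB2-AS1 and NDUFV2-AS1. Among the 52 that were tested the shares were 17.3%, 25% and 9.62%. Over all 35116 promoters of that length the shares were 5.78%, 10.3% and 1.75%. ATP5F1B and ATP5F1D had no entry. A match describes the letters of the window and is not a measured site.

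In control cells the 3 highest levels were 4094 ± 369 CPM (SD, n = 8) for ATP5F1E, the epsilon subunit of the ATP synthase rotor, 3618 ± 302 CPM for NDUFB9, an accessory subunit of complex I, and 2488 ± 524 CPM for ATP5F1B, the catalytic beta subunit. The 3 lowest tested levels were 0.653 ± 0.236 CPM for COX6B2, a testis isoform, 0.856 ± 0.331 CPM for NDUFB2 and 1.08 ± 0.369 CPM for ATP5MD, a small membrane subunit. These levels rank signals of different probes and not amounts of mRNA. ATP5F1A, which encodes the alpha subunit that pairs with beta in the same head, was counted at 7.21 ± 2.17 CPM, and CYCS at 11.5 ± 2.47 CPM. NDUFS1 and NDUFV1, core subunits that carry electrons from NADH, were at 74.2 ± 12.9 and 2.50 ± 0.832 CPM. Among the other complex IV subunits, COX5A was at 292 ± 25.6 CPM, COX8A at 63.1 ± 12.1 CPM and COX7A2 at 55.3 ± 5.70 CPM. NDUFA4, which carries a complex I symbol and is known as a subunit associated with complex IV, was at 14.4 ± 1.35 CPM, and its hypoxia-induced paralogue NDUFA4L2 at 1.35 ± 0.413 CPM.

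What the waters had in common was asked by setting the unweighted mean of the 16 sites against the controls. Of the oxidative phosphorylation genes 0 of 66 passed edgeR's quasi-likelihood test at a Benjamini-Hochberg adjusted p under 0.05, where 0.0576% of all features did, and 0 of 66 had an unadjusted p under 0.05, against 2.33% of all features. With so few features past the threshold, a count of 0 is not a result about the set. A feature that passes this threshold is termed called, and DESeq2 also called 0 of the 66. The median log2 difference was −0.02 for complex I, −0.04 for complex IV, −0.04 for ATP synthase and −0.13 for the 2 cytochromes, beside −0.02 for all features. Values ran from −0.25 ± 0.17 (SE) for CYCS to 0.19 ± 0.19 for COX6A1 and 0.19 ± 0.20 for NDUFA12. The 95% interval lay within 1 log2 unit of no difference for all 66 genes and within 0.5 for 51, and for 98.3% and 75.9% of all features. The fit without the 3 libraries also called 0 of 66, with 0.174% of all features called.

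The waters were then compared with each other. In an F test among the 16 sites, which leaves the controls out of the contrast, 8 of 66 genes differed, where 29.8% of all features did. They were CYCS (F = 3.64, adjusted p = 0.00147), ATP5MC2 (3.48, 0.00217), COX4I1 (3.44, 0.00240), ATP5F1B (3.17, 0.00466), ATP5F1D (3.02, 0.00683), ATP5MF (2.96, 0.00801), NDUFB8 (2.50, 0.0255) and NDUFA1 (2.42, 0.0307). Thus 4 of 18 ATP synthase genes, 1 of 10 complex IV genes, 2 of 36 complex I genes and 1 of the 2 cytochromes differed. In the fit without the 3 libraries 21 of 66 differed, all 8 among them, where 49.8% of all features did. Leaving out VROH 2 alone gave 16 and leaving out CRMI 1 alone gave 13, in fits for which the share of all features was not counted. The call of NDUFA1 was lost without GRNY 2 (F = 2.24), LRMN 3 (2.24), LRMN 4 (2.20) or ORNY 2 (2.21), and that of NDUFB8 without LRMN 4 (2.22).

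**Figure D1:**
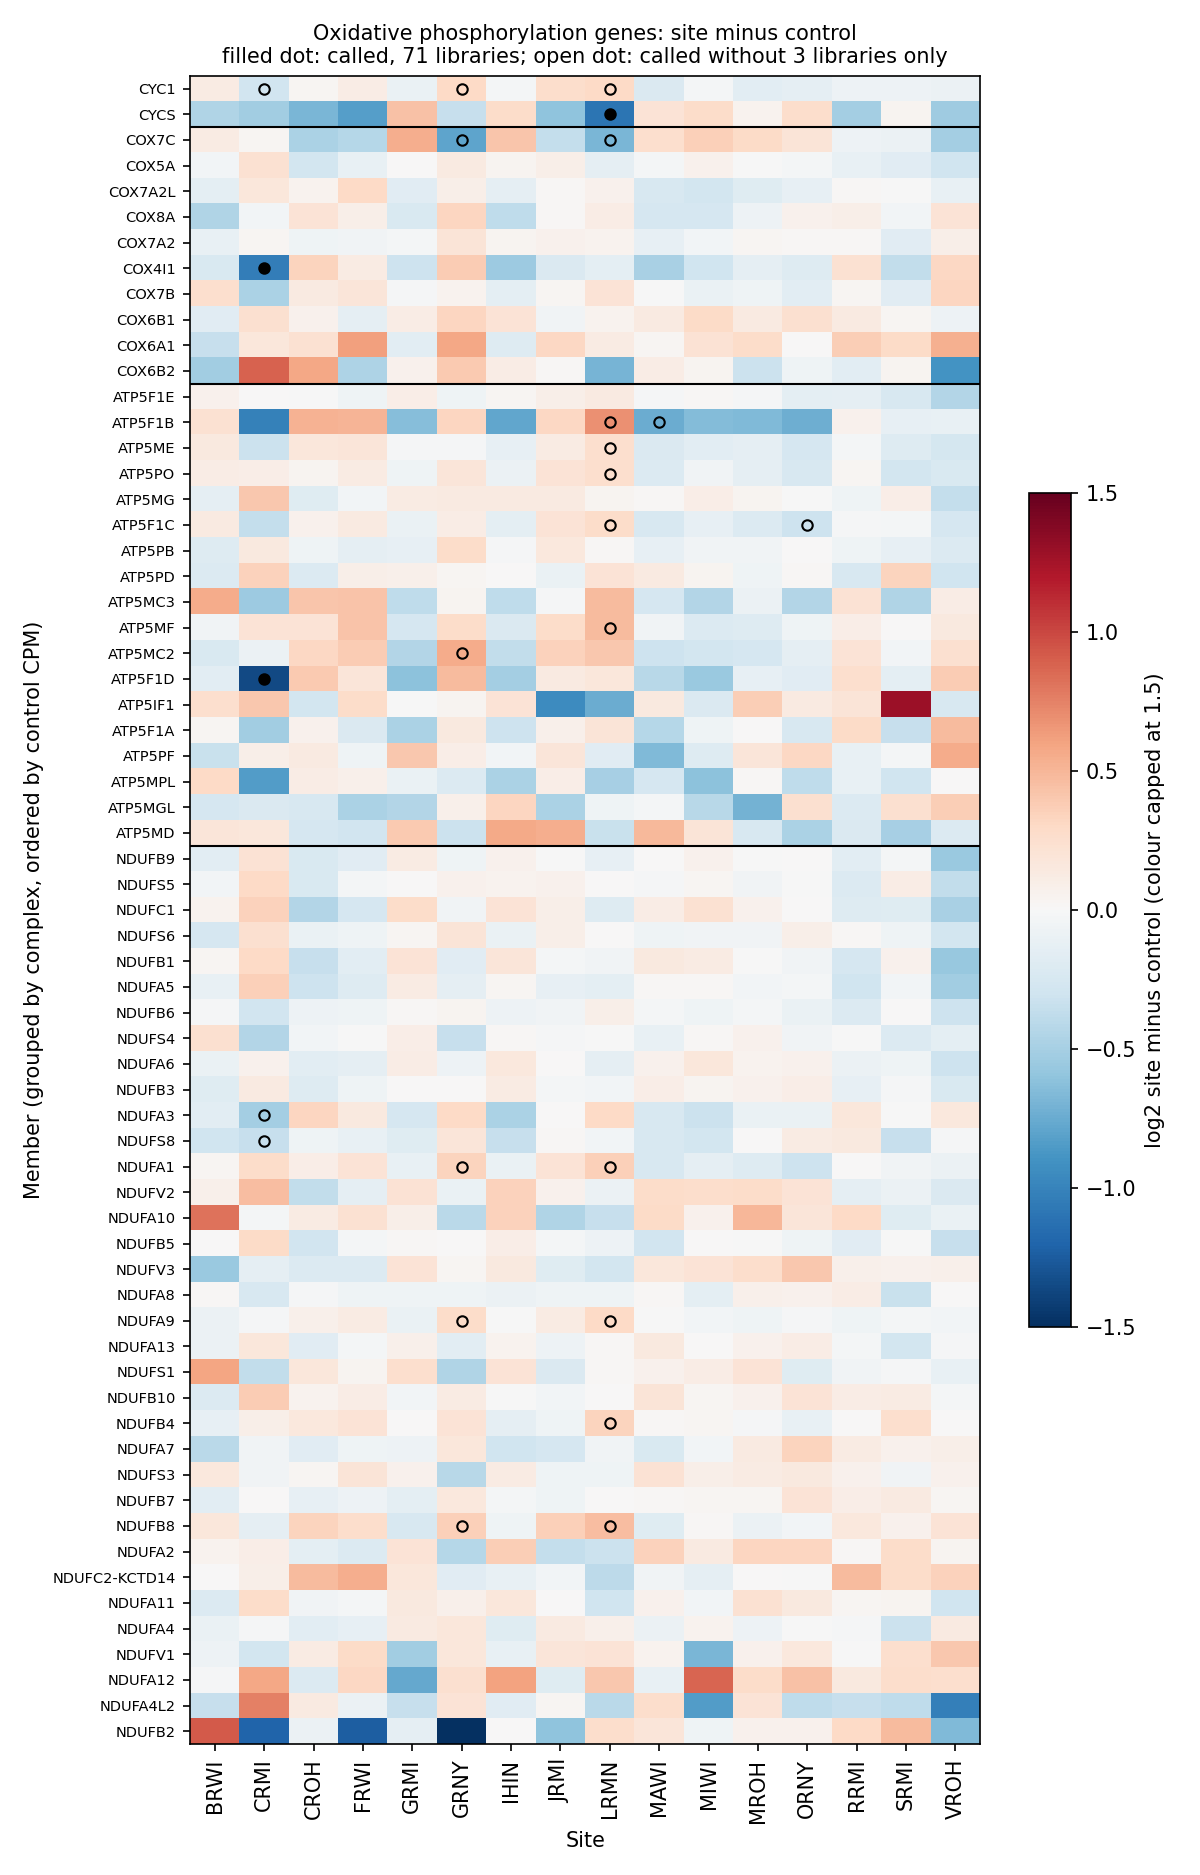
Log2 difference of each of 16 sites (columns) from the controls for 65 of the 66 tested genes (rows, grouped by complex and ordered by control CPM), with colour capped at 1.5. The 3 filled dots mark CYCS at LRMN and COX4I1 and ATP5F1D at CRMI, the pairs called over 71 libraries, and open dots mark pairs called only without the 3 libraries.

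Against the controls, site by site, 3 of 1056 gene and site pairs were called over the 71 libraries, 0 higher and 3 lower. Of all feature and site pairs 0.883% were called, 0.436% higher and 0.447% lower. With the 3 libraries left out, 25 pairs in 17 genes were called, 15 higher and 10 lower, where 4.09% of all pairs were called, 1.89% higher and 2.20% lower. Leaving out VROH 2 alone gave 9 pairs, and a fit with the label's dish number as a replicate block gave 0. Shares of all features were not counted for these 2 fits. The 25 calls without the 3 libraries lay at 5 sites: 12 at LRMN, 6 at GRNY, 5 at CRMI and 1 each at MAWI and ORNY. At the 16 sites 509 of the 1056 differences were above 0, and 1047 were under 1 log2 unit in size. The same shares over all features were not counted, so these 2 counts are not results about the set.

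In complex I, the entry point of electrons from NADH, no gene passed the test at a site over all 71 libraries. Without the 3 libraries 4 accessory subunits rose at LRMN and 3 of them at GRNY, while the accessory subunit NDUFA3 and the iron-sulphur subunit NDUFS8 fell at CRMI. At LRMN, 12 of the 66 oxidative phosphorylation genes were called (17.5% of all features), 10 higher (9.34%) and 2 lower (8.20%). At GRNY, 6 were called (9.17% of all features), 5 higher (4.35%) and 1 lower (4.81%). At CRMI, 5 were called, all lower, where 8.01% of all features were called and 5.05% were lower.

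NDUFA1, an accessory membrane subunit needed for assembly of complex I, read 142 CPM in the lowest control, 165 in the median and 190.1 in the highest, 202, 194, 218 and 235 CPM in the LRMN libraries and 174, 235, 219.9 and 205 CPM at GRNY. All LRMN libraries lay above all controls, and 1 GRNY library lay within the control range. The log2 differences without the 3 libraries were 0.36 ± 0.09 (SE, adjusted p = 0.00372) at LRMN and 0.33 ± 0.09 (adjusted p = 0.0169) at GRNY, and over all libraries 0.36 ± 0.16 (0.192) and 0.33 ± 0.16 (0.334). NDUFB8, an accessory subunit whose protein is often used as a marker of assembled complex I, ranged over 30.1, 33.6 and 41.4 CPM (lowest, median and highest control) and read 50.3, 45.2, 36.5 and 56.1 CPM at LRMN and 44.4, 52.1, 47.1 and 32.3 CPM at GRNY, with 1 library of each site within the control range. Its log2 difference was 0.47 ± 0.12 (adjusted p = 0.00544) at LRMN and 0.37 ± 0.12 (adjusted p = 0.0463) at GRNY without the 3 libraries, and 0.46 ± 0.16 (0.0837) and 0.36 ± 0.16 (0.299) with them.

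NDUFA9, an accessory subunit near the ubiquinone site, had control values of 87.7, 102 and 105 CPM (lowest, median and highest), and read 120.4, 105, 116 and 143 CPM at LRMN and 100.5, 134, 133 and 109 CPM at GRNY. The lowest LRMN library read the same as the highest control to 3 digits, and 1 GRNY library lay within the control range. The log2 differences were 0.30 ± 0.09 (adjusted p = 0.0114) at LRMN and 0.28 ± 0.09 (adjusted p = 0.0366) at GRNY without the 3 libraries. Over all libraries the adjusted p was 0.158 and 0.308. NDUFB4, another accessory membrane subunit, ranged over 49.5, 56.6 and 59.6 CPM in the controls and read 64.1, 68.2, 74.7 and 71.6 CPM at LRMN, above every control. Its log2 difference there was 0.33 ± 0.12 (adjusted p = 0.0368) without the 3 libraries and 0.33 ± 0.14 (0.172) with them.

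At CRMI NDUFA3 read 166, 113, 124 and 106 CPM against 143, 180.0 and 232 CPM in the lowest, median and highest control, and NDUFS8, which passes electrons towards ubiquinone, read 255, 112, 92.2 and 92.1 CPM against 126, 172 and 260.3 CPM. For both, CRMI 1 lay within the control range and the other 3 libraries below it. CRMI 1 held 7.30 M counts and CRMI 2, 3 and 4 held 3.18, 3.43 and 3.84 M, against 8.18 to 14.5 M in the controls. Within groups, over 68 libraries, NDUFA3 and NDUFS8 correlated with the total counts of a library at 0.54 and 0.68. The part of depth in these falls was not tested. With the 3 libraries left out, their log2 differences were −0.67 ± 0.21 (adjusted p = 0.0398) and −0.84 ± 0.27 (adjusted p = 0.0445), and over all 71 libraries −0.51 ± 0.23 (0.222) and −0.35 ± 0.31 (0.596).

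**Figure D2:**
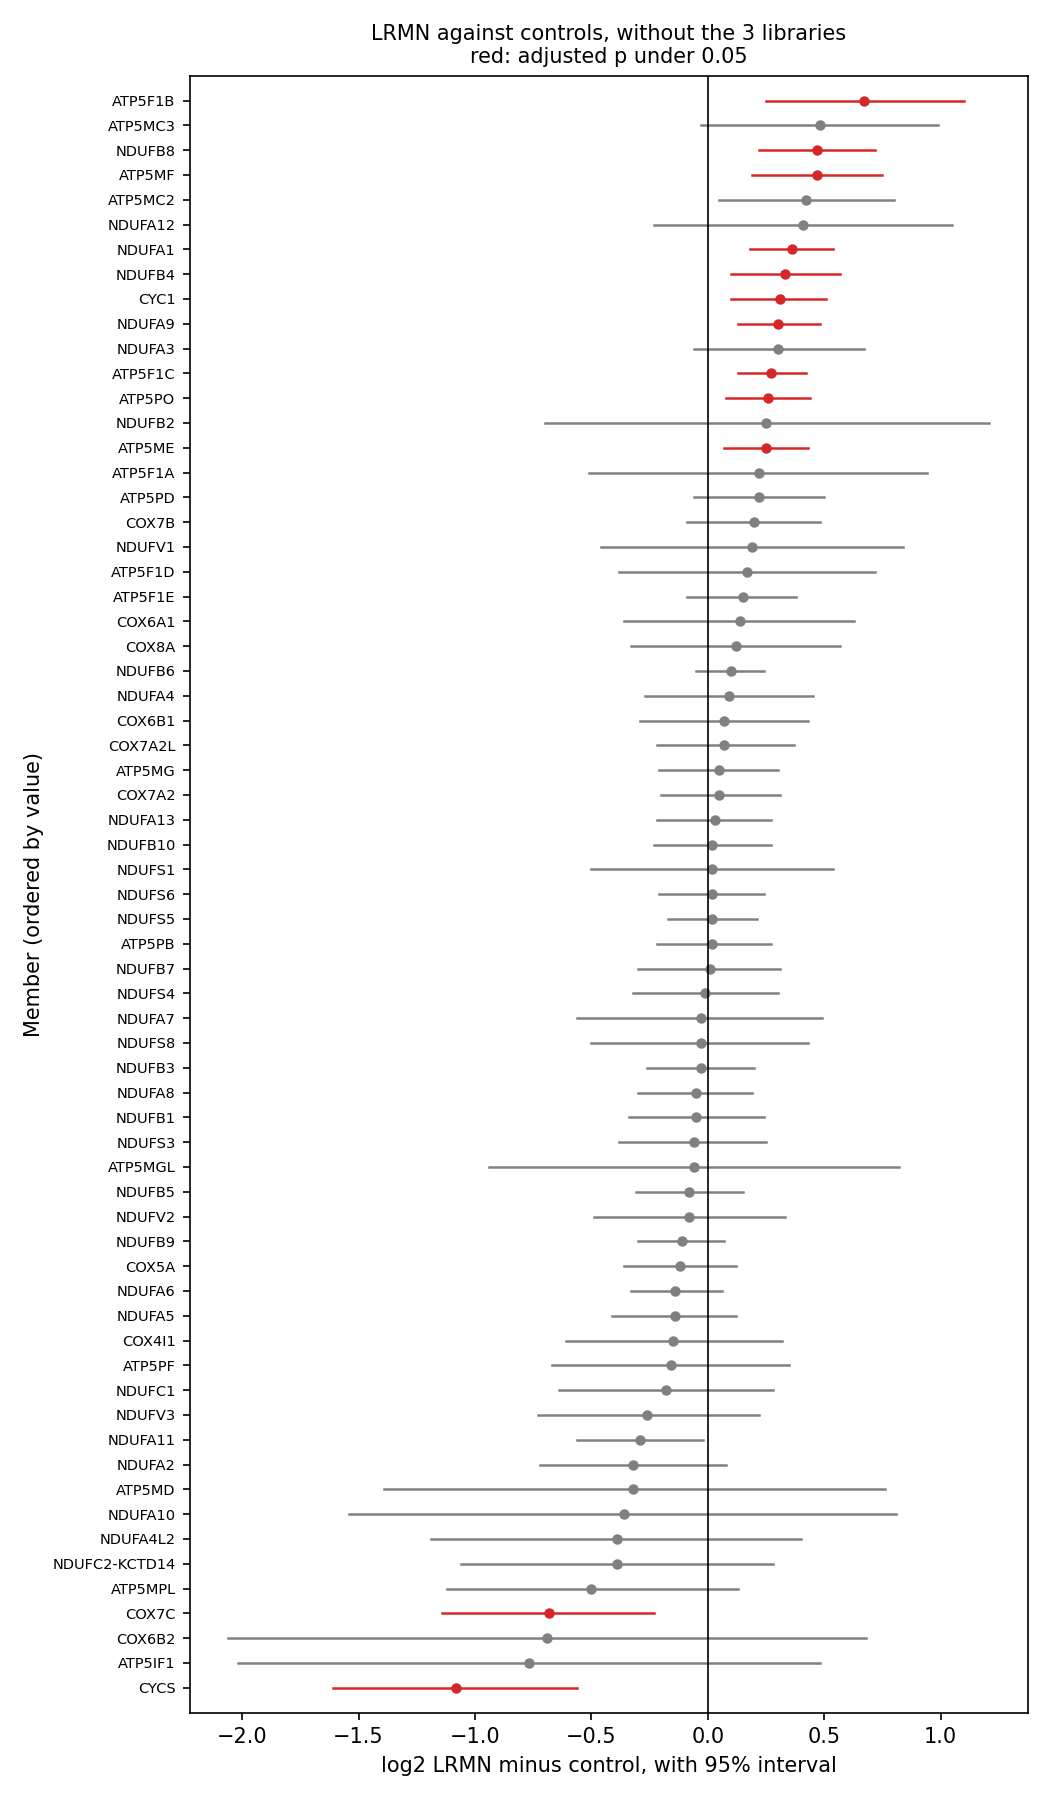
Log2 difference of LRMN from the controls (points) with 95% intervals (lines) for 65 of the 66 genes, fitted without the 3 libraries and ordered by value. The 12 genes in red passed the test: CYCS at −1.08 and COX7C at −0.68 lie to the left of 0, and 10 genes between 0.25 and 0.67 lie to the right.

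CYCS, whose protein carries electrons from complex III to complex IV and starts caspase activation when released into the cytosol, had the lowest log2 difference of the 66 genes at LRMN. The gene lies on chromosome 7 (GRCh38, 25120091 to 25125361, minus strand). It read 8.36 CPM in the lowest control, 10.9 in the median and 14.9 in the highest, and 5.23, 3.90, 6.61 and 5.92 CPM in the LRMN libraries. All 4 LRMN libraries lay below all 8 controls. CYCS fell by a log2 difference of −1.09 ± 0.31 (SE, adjusted p = 0.0262), the only call of the set at LRMN over 71 libraries, where 5.01% of all features were called and 2.81% were lower. Without the 3 libraries it was −1.08 ± 0.26 (adjusted p = 0.00253). The call over 71 libraries was lost without LRMN 1, 2 or 4, with values of −1.08, −0.96 and −1.14 and an adjusted p of at most 0.143.

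CYCS also differed among the sites as a group. Site means without the 3 libraries ran from 15.8 ± 9.08 CPM at GRMI and 14.2 ± 5.08 at MIWI down to 7.14 ± 1.40 at CROH, 6.54 ± 2.33 at FRWI and 5.42 ± 1.16 at LRMN. The GRMI mean rests on 1 library of 29.1 CPM, and its other libraries, at 12.8, 12.2 and 8.90 CPM, lay within the control range. At FRWI and CROH the log2 differences from the controls, −0.83 ± 0.26 and −0.71 ± 0.25, did not pass (adjusted p = 0.0608 and 0.0577 without the 3 libraries). The means of FRWI and LRMN differed by less than the SD at FRWI.

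CYC1, the heme subunit of complex III that hands electrons to cytochrome c, was higher at LRMN and lower at CRMI. It read 131, 149 and 187 CPM in the lowest, median and highest control, and 192, 181, 162 and 209 CPM at LRMN, 181, 215, 213 and 136 CPM at GRNY and 152, 127, 113 and 102 CPM at CRMI. The groups overlapped with the controls at all 3 sites. In the fit without the 3 libraries it rose by 0.31 ± 0.10 at LRMN (adjusted p = 0.0323) and 0.31 ± 0.10 at GRNY (adjusted p = 0.0496) and fell at CRMI (−0.41 ± 0.12, adjusted p = 0.0234). Over all libraries the values were 0.30 ± 0.15 (0.244), 0.30 ± 0.15 (0.346) and −0.29 ± 0.15 (0.291).

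In complex IV, which passes electrons to oxygen, COX4I1 was the 1 gene called over 71 libraries. It encodes the common isoform of subunit 4, a nuclear-encoded subunit at which ATP regulates the enzyme, and lies on chromosome 16 (GRCh38, 85798633 to 85807044, plus strand). It read 29.9, 36.2 and 55.1 CPM in the lowest, median and highest control, and 15.2, 18.3, 24.9 and 16.0 CPM at CRMI. All CRMI libraries lay below all controls. COX4I1 fell by a log2 difference of −1.04 ± 0.26 (adjusted p = 0.0123), and 2 of 66 genes of the set were called at CRMI over 71 libraries, where 3.74% of all features were called and 1.73% were lower. Without CRMI 1 alone the value was −0.93 and the call was lost (adjusted p = 0.0661), and without the 3 libraries it was −0.95 ± 0.28 and called (adjusted p = 0.0273).

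Across sites the COX4I1 mean without the 3 libraries was 19.7 ± 4.62 CPM at CRMI and 26.0 ± 4.26 at IHIN at the low end, and 49.4 ± 17.8 at GRNY, 49.4 ± 17.7 at VROH and 48.0 ± 8.90 at CROH at the high end, around 38.1 ± 7.80 in the controls. The 3 highest means lay within 1 SD of each other. COX7C, a small membrane subunit, was lower at GRNY and LRMN. It read 497, 860.0 and 1150.3 CPM in the lowest, median and highest control, 653, 384, 579 and 314 CPM at GRNY and 639, 301, 674 and 467 CPM at LRMN, so that libraries of both sites lay within the control range. With the 3 libraries left out, it fell at GRNY (−0.79 ± 0.23, adjusted p = 0.0220) and at LRMN (−0.68 ± 0.23, adjusted p = 0.0288). Over all libraries the values were −0.79 ± 0.43 (0.389) and −0.69 ± 0.43 (0.376).

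**Figure D3:**
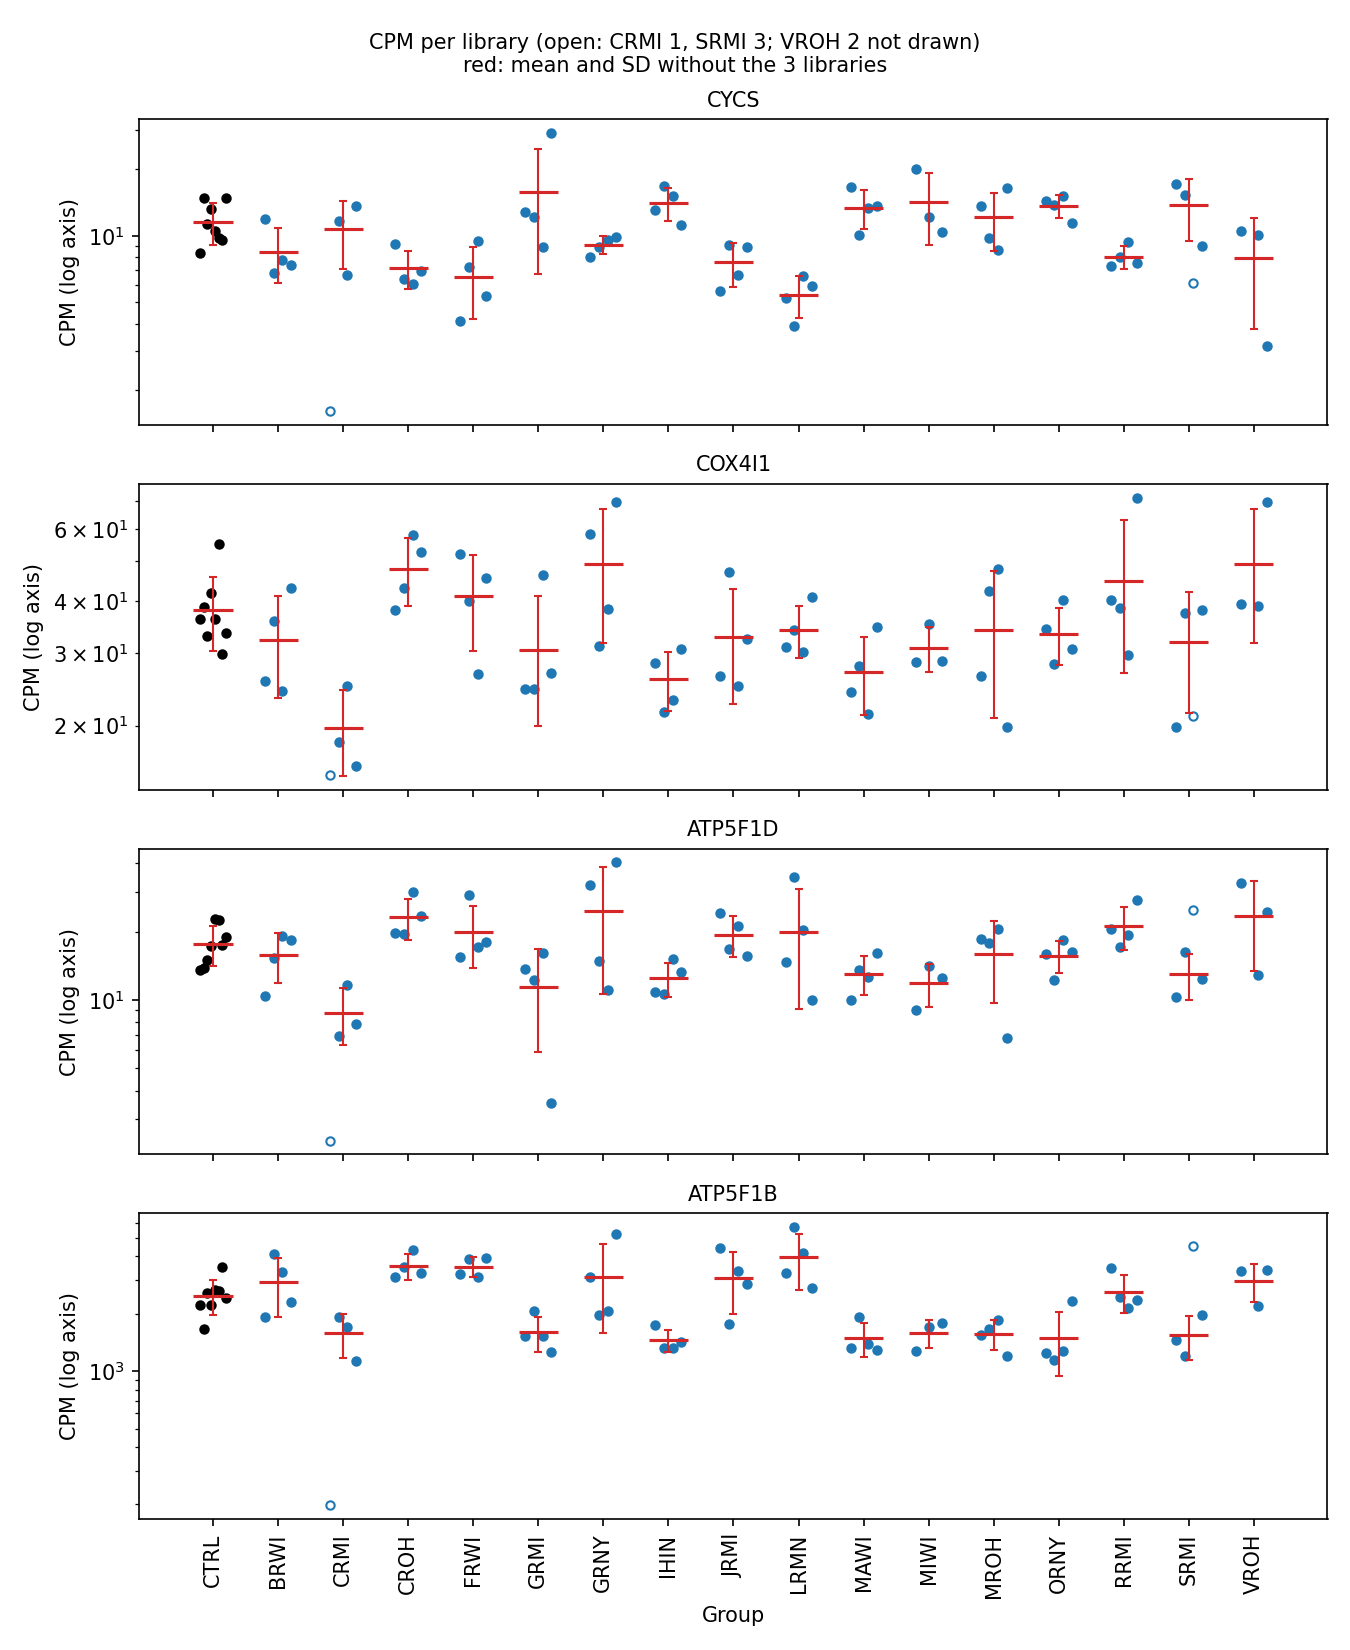
CPM (log axis) of CYCS, COX4I1, ATP5F1D and ATP5F1B in each library of the controls and the 16 sites, with the group mean and SD in red, both without the 3 libraries (CRMI 1 and SRMI 3 drawn open, VROH 2 not drawn). The LRMN points of CYCS and the CRMI points of COX4I1 and ATP5F1D lie below all control points.

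In ATP synthase, ATP5F1D, the delta subunit of the rotor, was lower at CRMI. The gene lies on chromosome 19 (GRCh38, 1241746 to 1244826, plus strand). It read 13.6, 17.4 and 22.7 CPM in the lowest, median and highest control and 2.41, 6.93, 11.6 and 7.84 CPM at CRMI, all below the controls. ATP5F1D fell by a log2 difference of −1.35 ± 0.35 (adjusted p = 0.0161) over 71 libraries. The lowest value was that of CRMI 1, and without it the difference was −0.99 and not called (adjusted p = 0.134), nor was it called without the 3 libraries (adjusted p = 0.0677).

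ATP5F1B, whose product binds and makes ATP in the catalytic head, had a wide range of site differences for an abundant gene, 1.45 log2 units without the 3 libraries, against 0.29 for ATP5F1E and 0.36 for NDUFB9. The gene lies on chromosome 12 (GRCh38, 56638175 to 56646068, minus strand). Its mean without the 3 libraries was 3972 ± 1297 CPM at LRMN, 3563 ± 544 at CROH and 3539 ± 431 at FRWI, and 1496 ± 552 at ORNY, 1485 ± 299 at MAWI and 1450.2 ± 197 at IHIN. Without the 3 libraries no site mean lay between 1595 CPM (GRMI) and 2609.7 CPM (RRMI), an interval that held the control mean of 2488 CPM. Over all 71 libraries the means at SRMI (2293 ± 1533 CPM) and VROH (2245 ± 1582 CPM) lay inside it, so the gap depends on leaving libraries out. The gap is one of means, since single libraries such as GRNY 2, at 1959 CPM, lay inside it.

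Against the controls, which read 1672, 2490.0 and 3518 CPM (lowest, median and highest), ATP5F1B was called higher at LRMN and lower at MAWI without the 3 libraries. The LRMN libraries read 3272, 5695, 4191 and 2730.2 CPM, with 2 above all controls, and the MAWI libraries 1325, 1929.9, 1389 and 1295 CPM, with 3 below all controls. The log2 differences were 0.67 ± 0.21 (adjusted p = 0.0216) and −0.74 ± 0.23 (adjusted p = 0.0440). At MAWI this was the 1 call of the set, where 4.71% of all features were called and 2.56% were lower. Over all libraries the values were 0.68 ± 0.37 (0.302) and −0.74 ± 0.40 (0.502), and 0 genes of the set were called at MAWI, where 0.360% of all features were. Without the 3 libraries 8 sites lay above the controls and 8 below. Falls near that of MAWI were not called at IHIN (−0.78 ± 0.23, adjusted p = 0.0764), ORNY (−0.72 ± 0.23, 0.0541), SRMI (−0.69 ± 0.25, 0.169) and CRMI (−0.66 ± 0.25, 0.0938). GRMI, MROH and MIWI each read −0.65, and CROH and FRWI, not called either, read 0.50 and 0.51. The fall is thus not shown to be particular to MAWI.

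ATP5F1C encodes the gamma subunit that forms the central shaft. It read 610.4, 687 and 773 CPM in the lowest, median and highest control, 811, 856, 899 and 797 CPM at LRMN and 527, 516, 548 and 655 CPM at ORNY. All LRMN libraries lay above all controls and 3 of 4 ORNY libraries below them. The LRMN libraries held 6.54, 5.91, 4.47 and 7.77 M counts and the ORNY libraries 8.68, 9.19, 7.75 and 4.88 M. Controls held 8.18 to 14.5 M. Within groups ATP5F1C correlated with the total counts of a library at −0.58 over 68 libraries. The part of depth in its site differences was not tested. Without the 3 libraries it rose at LRMN (0.27 ± 0.07, adjusted p = 0.00694) and fell at ORNY (−0.30 ± 0.08, adjusted p = 0.0134), the 1 call of the set there, where 4.09% of all features were called and 2.65% were lower. Over all libraries the values were 0.27 ± 0.21 (0.478) and −0.31 ± 0.21 (0.697), and 0 genes of the set were called at ORNY, where 0.202% of all features were.

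ATP5MC2, which encodes subunit c of the membrane ring, was highest at GRNY. It read 29.2, 38.3 and 42.5 CPM in the lowest, median and highest control and 51.3, 52.1, 58.1 and 58.3 CPM at GRNY, and all 4 GRNY libraries lay above all controls. The log2 difference was 0.56 ± 0.19 (adjusted p = 0.0459) without the 3 libraries and 0.56 ± 0.20 (0.227) with them, when 0 genes of the set were called at GRNY and 0.144% of all features were. ATP5MF, a membrane subunit of the stator, read 35.2, 46.9 and 53.0 CPM in the lowest, median and highest control and 58.1, 56.3, 78.6 and 65.4 CPM at LRMN, again without overlap. It rose there by 0.47 ± 0.14 (adjusted p = 0.0152) without the 3 libraries, against 0.47 ± 0.16 (0.0719) with them. The peripheral stalk subunit ATP5PO (0.26 ± 0.09) and the membrane subunit ATP5ME (0.25 ± 0.09) also rose at LRMN in that fit (adjusted p = 0.0368 and 0.0418). Within groups these genes correlated with the total counts of a library at −0.38 and −0.69, and every LRMN library held fewer counts than any control.

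At the remaining 11 sites no gene of the set was called in either fit. With and without the 3 libraries the shares of all features called there were 0.144% and 1.14% at BRWI, 2.14% and 10.3% at CROH, 0.0720% and 2.18% at FRWI, 0.0432% and 0.549% at GRMI, 0.0288% and 0.549% at IHIN, and 0.130% and 2.91% at JRMI. They were 0 and 0.0145% at MIWI, 0 and 0.0868% at MROH, 0.849% and 2.86% at RRMI, 1.14% and 1.27% at SRMI, and 0.130% in both at VROH. At CROH, the site with the most called features among these, 10 of 66 genes had an unadjusted p under 0.05 without the 3 libraries, against 26.8% of all features.

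The genes that differed among sites tended to place the sites in 1 of 2 opposite orders, a pattern noticed after their values were seen and given as a description of 16 means. The 8 sites with the highest ATP5F1B means without the 3 libraries were LRMN, CROH, FRWI, GRNY, JRMI, VROH, BRWI and RRMI. Of the other 20 genes called among sites in that fit, 5 had the same 8 sites at the top: ATP5F1C, NDUFA1, NDUFB8, ATP5PO and the subunit c gene ATP5MC3. In 4 genes those 8 sites were the lowest: CYCS, COX7C and the accessory complex I subunits NDUFA2 and NDUFA6. In all, 14 genes shared 6 or more of the top sites with ATP5F1B and 6 shared 1 or fewer. In that fit 49.8% of all features differed among sites, and features outside the set were not ranked in this way. The 2 orders are therefore not shown to be particular to these genes. All of these means come from the same libraries and share their scaling.

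The spread of site differences in the set was near that of all features. The range of the 16 site differences without the 3 libraries had a median of 0.72 log2 units over the 66 genes and 0.84 over all 6916 features, with 0.65 for complex I, 0.71 for complex IV and 1.00 for ATP synthase. The narrowest ranges were 0.29 for ATP5F1E, 0.30 for COX7A2, the common isoform of a small complex IV subunit, and 0.31 for the accessory complex I subunit NDUFB6. The widest were 2.58 for NDUFB2 and 2.39 for COX6B2, both under 1 CPM in the controls, and 2.05 for ATP5F1A. CYCS, ATP5F1D and ATP5F1B had ranges of 1.51, 1.47 and 1.45.

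Within groups the genes did not rise and fall as a block. After each group's mean was removed, 55 genes at 10 CPM or more had a median pairwise Pearson correlation of 0.04 over 68 libraries, and a median size of 0.31, where 4241 features at that level had 0.00 and 0.24. Correlations above 0.5 made up 15.6% of the 1485 pairs (7.77% of all pairs of features) and those under −0.5 made up 9.43% (5.83%). These values are descriptions, since the points share libraries and depth. Single genes followed depth in either direction, from −0.69 for ATP5ME to 0.68 for NDUFS8. The part of depth in the site calls was not tested. Subunits of the same complex stood at both ends, with 0.91 for NDUFC1 and NDUFV2 and −0.88 for NDUFA3 and NDUFB1, all of complex I. Across complexes COX5A and NDUFC1 reached 0.91, and CYCS had 0.65 with COX7C and −0.51 with ATP5F1B.

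**Figure D4:**
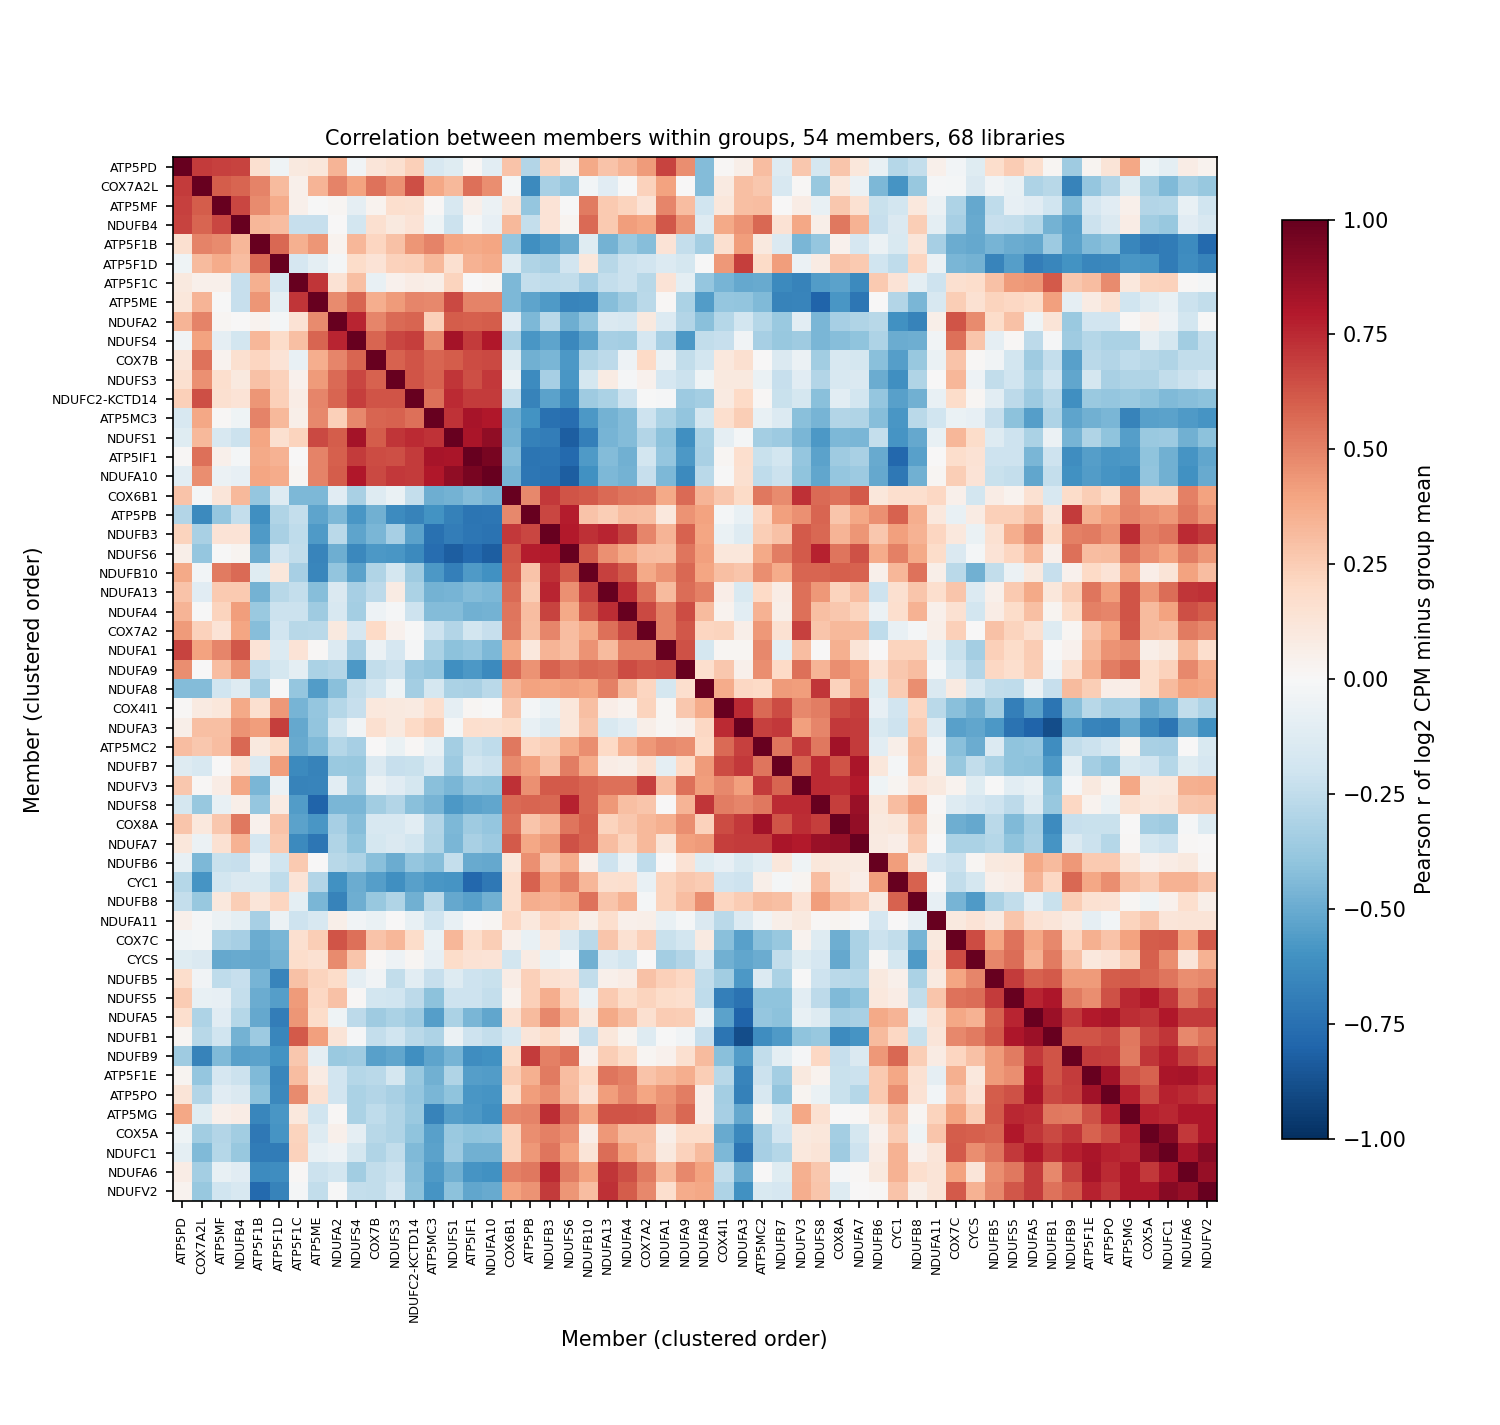
Pearson correlation of log2 CPM, after removal of group means, between 54 of the 55 genes at 10 CPM or more over 68 libraries, in clustered order on both axes. Blocks of positive (red) and negative (blue) values are present side by side, with a median of 0.04 over the pairs of all 55 genes.

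The highest correlation among the 55 genes, 0.95, joined NDUFA10, an accessory subunit of complex I, to ATP5IF1, the inhibitor that stops ATP synthase from running backwards. These were also the most variable of the 55 genes, with a within-group SD of 1.11 and 1.09 log2 units. The SD was not computed for the genes at lower levels. NDUFA10 read 58.9, 152 and 246 CPM in the lowest, median and highest control, 114, 10.3, 14.5 and 325 CPM at GRNY and 232, 7.93, 83.5 and 125 CPM at JRMI. ATP5IF1 read 3.48, 12.4 and 18.9 CPM in the lowest, median and highest control, 7.63, 1.33, 1.27 and 41.8 CPM at GRNY and 14.4, 0.240, 4.19 and 6.78 CPM at JRMI. In both genes GRNY 2, GRNY 3 and JRMI 2 were the low libraries and GRNY 4 the high one. NDUFS1, a core subunit, followed NDUFA10 with a correlation of 0.88. With this spread between dishes neither gene passed the test at any site.

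**Figure D5:**
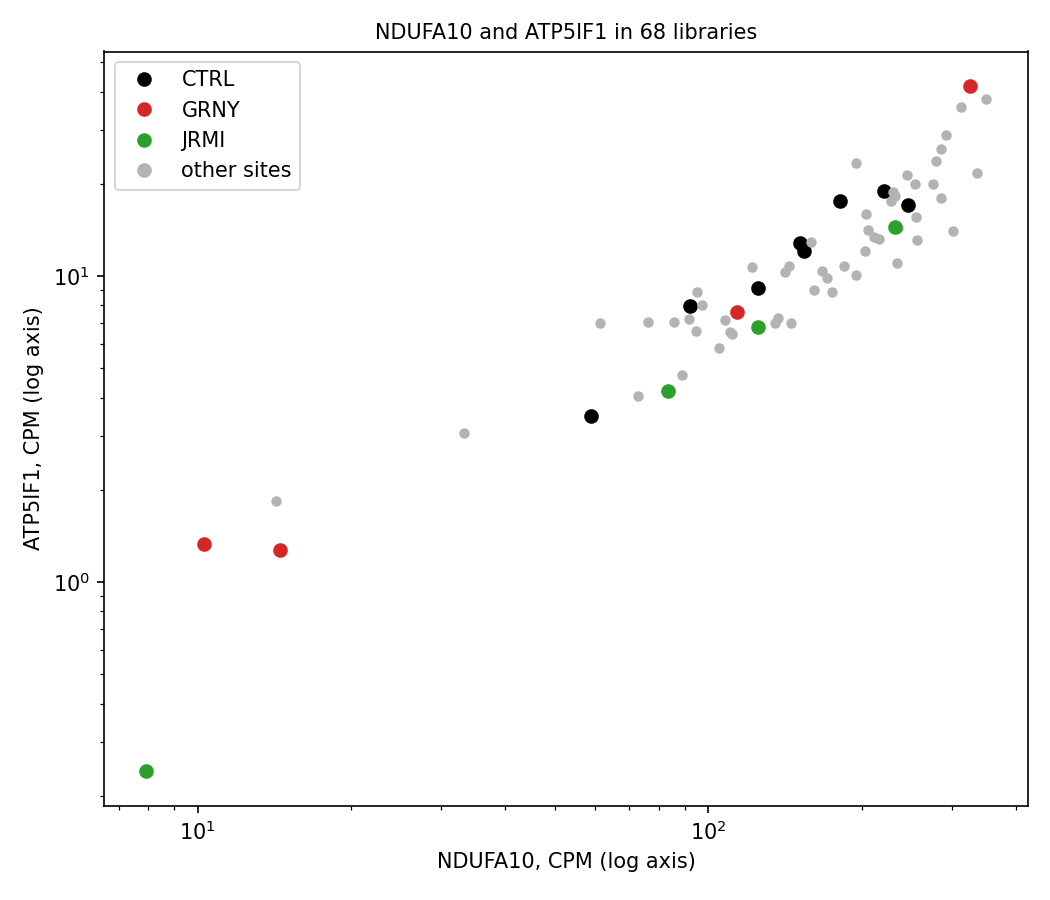
CPM of ATP5IF1 against CPM of NDUFA10 (both log axes) in 68 libraries, with controls in black, GRNY in red, JRMI in green and the other sites in grey. Libraries of 1 group lie far apart along a common line, from 1.27 to 41.8 CPM of ATP5IF1 within GRNY.

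Other genes of mitochondrial respiration were counted in the same fits, over all 71 libraries and again without the 3. At the mean of sites 0 genes of any of these lists were called. The shares of all features to read these counts against are 29.8% among sites and 0.883% of gene and site pairs over 71 libraries, and 49.8% and 4.09% without the 3. Of 41 tested assembly factors, 1 was higher and 1 lower at a site: COA4, a complex IV factor, rose (0.55 ± 0.14, adjusted p = 0.0128) and ATPAF1, which assembles the ATP synthase head, fell (−0.84 ± 0.20, adjusted p = 0.0111), both at CRMI. Among sites 15 of the 41 differed, led by COA1 (F = 6.28). In the fit without the 3 libraries 39 were tested, of which 18 differed among sites, led by ECSIT (F = 11.3), and 12 and 11 gene and site pairs of 624 were higher and lower.

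Of 20 genes of the citric acid cycle and pyruvate dehydrogenase, which supply NADH to complex I, PDHX, a structural part of pyruvate dehydrogenase, rose at LRMN (0.42 ± 0.12, adjusted p = 0.0217). IDH2, mitochondrial isocitrate dehydrogenase, and MPC2, a part of the pyruvate carrier, fell at CRMI (−1.06 ± 0.29 and −0.81 ± 0.24, adjusted p = 0.0289 and 0.0386). Among sites 7 of the 20 differed, led by PDHX (F = 6.71), and without the 3 libraries 12 of the 20, led by PDK1 (F = 11.6), a kinase that inhibits pyruvate dehydrogenase, with 14 pairs of 320 higher and 8 lower. Of 17 genes of ubiquinone synthesis and electron entry, 0 were called at a site and 5 differed among sites, led by ETFA, an electron carrier of fatty acid oxidation (F = 8.37). With the 3 libraries left out, 7 of the 17 differed among sites, again led by ETFA (F = 19.5), and 3 pairs of 272 were higher and 6 lower.

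Of 15 regulators of mitochondrial gene expression, 0 were called at a site and HCFC1, PPRC1 and CREB1 differed among sites (F = 3.21, 2.89 and 2.23). Without the 3 libraries 9 of the 15 differed among sites, led by GABPB1 (F = 8.38), a partner of GABPA, and the growth regulator MYC (F = 7.99), and 6 pairs of 240 were higher and 4 lower. Among 22 genes of mitochondrial stress and of the death pathway that cytochrome c starts, PINK1, a sensor of damaged mitochondria, rose at LRMN (0.37 ± 0.11, adjusted p = 0.0333), the stress factor ATF5 rose at SRMI (0.96 ± 0.24, adjusted p = 0.0254) and the stress factor DDIT3 fell at LRMN (−0.46 ± 0.14, adjusted p = 0.0409). Of this list 5 differed among sites, and without the 3 libraries 14 of the 22, led by the chaperone HSPD1 (F = 7.13), with 7 pairs of 352 higher and 5 lower. Of 20 genes of nucleotide carriers and oxygen radical defence, CHCHD10, a protein of the intermembrane space, fell at LRMN (−0.52 ± 0.15, adjusted p = 0.0267). Of these 20, 5 differed among sites, and without the 3 libraries 9, led by PHB2 (F = 8.57), a scaffold of the inner membrane, with 3 pairs of 320 higher and 7 lower. None of the 15 listed mitochondrially encoded genes had an entry, so the nuclear subunits could not be set against them.

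Markers of other cell types were read beside these sites. The 8 immune markers, of which 1 was at 0 in every control and 4 were under 1 CPM, summed to 1545 to 2168 CPM in the controls, 2823 to 3926 CPM at LRMN, 2218 to 3365 CPM at GRNY and 779 to 1109.6 CPM at CRMI. All LRMN and GRNY libraries thus lay above the controls and all CRMI libraries below them. The 6 endothelial markers summed to 1.92 to 3.87 CPM in the controls, 1.13 to 3.55 at LRMN, 1.71 to 2.78 at GRNY and 1.26 to 2.31 at CRMI, and the 8 fibroblast and stellate markers to 38.9 to 63.4, 38.0 to 51.9, 41.1 to 57.7 and 28.3 to 38.2 CPM. The part of these differences in the results at LRMN, GRNY and CRMI was not tested. All dishes came from pooled cells of 1 line, so these sums are levels of the named transcripts in HepG2 dishes. They do not count cells of other types.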

How the data were processed

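RNA of HepG2 dishes was measured by TempO-Seq in 71 libraries. The authors deposited 1 table of estimated counts per gene symbol, and its name calls the values normalized. The submitters' processing notes name Salmon and the GRCh38 build, with no version. Between libraries the totals differed, and of the values under 20 a median of 93.4% (lowest 91.6%) per library lay within 0.02 of a whole number of reads, so the deposited expected counts were treated as counts and rounded. The 31012 entries analysed run in alphabetical order and end before RAI14, so later symbols, such as those of complex II and most of complex III, were not analysed here.

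The members and gene lists were chosen with earlier results of these data known. Counts were fitted with edgeR 4.0.16 (limma 3.58.1, R 4.3.3): trimmed mean of M-values scaling, filterByExpr with a minimum count of 10, a mean for each of 17 groups and 54 residual degrees of freedom. The quasi-likelihood test was adjusted by Benjamini-Hochberg over all 6947 features in each comparison, with a threshold of 0.05. The SE is the log2 difference divided by the square root of F. Where a fitted variance falls under that of counting, edgeR raises the p-value, so a p can exceed the one that the SE gives. Alternatives were DESeq2 1.42.0, other size factors, no filter, left-out libraries, a replicate block and separate fits. The test was also run on counts simulated from the control means and the dispersions of the fit. Such counts follow the fitted model, so that run cannot show how the test behaves where these data depart from it. Named genes were those past the threshold (at most 4 per site and direction, 12 among sites), a fixed list of well-known subunits, and the 3 highest and lowest in the controls. Gene positions follow GENCODE v29. The values of 1 gene of the set are not reported here; it is in the counts and not in the figures.

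The protocol in the labels names 16 control dishes, and 8 control libraries were analysed here. The MIWI columns and 1 GRMI column carry numbers other than those in their labels and were matched by group only. Same-numbered dishes had a median correlation of 0.03 (40.9% of 421 pairs over 0.1), against −0.01 over 1265 pairs with other numbers. These values do not settle whether the numbers pair the dishes, and the main fit did not use them. A fit with the number as a replicate block is given below. In a chi-square test no 2 libraries of a group agreed within sampling noise (lowest value per feature 4.58 over 112 pairs).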

Additional observations from a re-analysis of the deposited data

Results flagged for a closer look

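A check for a library far from the rest of its group covered 39 groups of values. One of these, MIWI with 3 libraries, was too small to be flagged. In all, 6 libraries or values stood out, and chance alone gives about 1 in 20 groups. The median log2 difference of the 66 genes from the control mean stood far from the rest of its group in CTRL 5 (−0.12), JRMI 1 (−0.09), SRMI 3 (−0.18) and VROH 2 (−6.96). VROH 2 is the library of 8872 counts, and SRMI 3 is also left out in the fit without the 3 libraries. Of single genes, ATP5F1B in MAWI 2 (1929.9 CPM) lay above the other MAWI libraries, and ATP5IF1 in GRNY 4 (41.8 CPM) above the other GRNY libraries.

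The 8 genes that differed between waters in the F test among sites were CYCS (F = 3.64), ATP5MC2 (3.48), COX4I1 (3.44), ATP5F1B (3.17), ATP5F1D (3.02), ATP5MF (2.96), NDUFB8 (2.50) and NDUFA1 (2.42), all with an adjusted p under 0.05 by edgeR's quasi-likelihood test.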

How the results depend on the processing

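The count of 0 genes at the mean of sites held under every alternative run. Called gene and site pairs numbered 3 over 71 libraries, 25 without VROH 2, CRMI 1 and SRMI 3, 9 without VROH 2 and 24 with each site fitted with the controls alone, and 2 of the 3 pairs were among the 25. RLE size factors, no filter and DESeq2 gave 3. Genes called among sites numbered 8, then 21 without the 3 libraries, 16 without VROH 2, 13 by DESeq2, 9 with RLE size factors and 6 without a filter. Shares of all features called were counted only over 71 libraries and without the 3. The other counts of pairs and genes describe how the calls depend on the setting and are not results about the set. Leaving out each library in turn gave 2 to 9 pairs, 0 genes at the mean of sites and 7 to 16 genes among sites. With the label's number as a replicate block, over 67 libraries, 0 pairs, 0 genes at the mean of sites and 6 genes among sites were called (CYCS at LRMN, COX4I1 at CRMI and ATP5F1D at CRMI had an adjusted p of 0.0990, 0.0759 and 0.196 and stayed lower), and 23 of 60 libraries were closest to their own number. The median size of the correlations between genes was 0.31, 0.32 over site libraries alone and 0.84 over all 71 libraries, both chosen after seeing the data, where VROH 2 holds almost all genes low. For the pairs and genes called in either fit, no log2 difference changed sign under the alternatives: 3526 values kept their side of the threshold, 101 passed it only under the alternative and 18 no longer passed it. The cause was not tested. Of all 1056 pairs 45 had opposite signs with and without the 3 libraries, 0 of them called in either fit and 43 at CRMI, SRMI or VROH, where a library was left out. ATP5IF1 at SRMI went from 1.28 to −0.59 and ATP5PB at CRMI from 0.15 to −0.31. Without the 3 libraries the common coefficient of variation fell from 0.257 to 0.199. Depth limits the low genes such as NDUFB2 and COX6B2, where few reads stand behind a site value, and intervals cover the spread between dishes of 1 experiment.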
